A study of Homo sapiens with 50 samples.

Results

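Ribosome biogenesis genes encode the proteins that transcribe, modify, cut and assemble ribosomal RNA into the subunits of the ribosome. The set described here holds 40 such genes, named in a fixed list by the step of ribosome assembly they serve. Of these, 39 were measured among the 18239 genes named on the arrays, and GNL3 was not analysed here. Each gene was read from 1 probe set, the one annotated to it alone with the highest mean over all 50 arrays.

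The arrays hold RNA from A549 cells, a human lung adenocarcinoma line, in a study of serine dependence and of compound 16, an activator of the glycolytic enzyme pyruvate kinase M (PKM). One group was harvested while still growing in full RPMI medium (labelled pre switch). The rest were moved to Basal Medium Eagle with non-essential amino acids, made either with serine or without it, and 24 h later were given 1 µM compound 16 or its solvent DMSO. They were harvested at 0, 1.5, 6 and 24 h after that addition, so the 0 h cells had spent 24 h in the new medium. This gives 17 groups of 3 arrays each, except that the group with serine and DMSO at 1.5 h has 2. The compound was given to 1 cell line at 1 dose. The labels do not say how long the 0 h cells had been in contact with the compound, nor whether the arrays of a group come from separate cultures, so the p-values measure only the spread between these samples, which may be technical. Arrays are named below by the number in their title, which runs through the series.

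Ribosome assembly starts in the nucleolus, where RNA polymerase I transcribes a long precursor rRNA. Guided by small nucleolar RNAs, the box C/D particles methylate it and the H/ACA particles convert uridines to pseudouridine. The small-subunit processome folds and cuts the part that becomes the small subunit, and further factors build the large subunit. In growing and tumour cells many of these genes are known to be driven together by MYC, which binds the E-box CACGTG in promoters, and the pathway takes a large share of a growing cell's resources.

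The promoters of the members were searched for that E-box because it is the sequence through which the shared regulator is known to act. The window was the 250 bases before the start that the RefSeq promoter table (GRCh38.p14) gives each gene, and since CACGTG is its own reverse complement a match counts on both strands. For BYSL, PES1 and UBTF, and by 2 bases for UTP15, that start lies inside the span of the gene in the RefSeq gene table, so the window is not that of its outermost start. Of the 39 measured members 33 had a promoter entry. The E-box stood in 4 of these 33 (12.1%), against 7.83% of the 14492 measured genes with an entry. The related E-box CACGCG, also searched as CGCGTG and sharing no full match with CACGTG, stood in 7 (21.2%), UBTF among them, against 13% of the measured genes. NOP10, a core protein of the H/ACA particles, held 2 copies of CACGTG (chr15:34343137-34343386, minus strand). UTP4 and UTP20, both of the small-subunit processome, held 1 copy each, with the first base 16 bases before the start in UTP4 (chr16:69132399-69132648, plus strand) and 10 bases before it in UTP20 (chr12:101279855-101280104, plus strand). In NAT10, the enzyme that acetylates cytidines of rRNA, it began 15 bases before the start (chr11:34105379-34105628, plus strand). WDR43 (chr2:28894417-28894666, plus strand) and NOB1 (chr16:69754927-69755176, minus strand), whose signals stand out in the results, held neither motif in this window. The 6 sequences are shown to let the E-box, in capitals, be seen in the 4 that hold it and to give the 2 that do not.
NOP10: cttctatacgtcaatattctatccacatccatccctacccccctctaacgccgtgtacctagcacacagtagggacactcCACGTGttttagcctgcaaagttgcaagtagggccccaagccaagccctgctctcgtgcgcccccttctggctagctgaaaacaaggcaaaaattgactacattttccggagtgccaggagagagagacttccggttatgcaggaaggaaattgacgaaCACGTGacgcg
UTP4: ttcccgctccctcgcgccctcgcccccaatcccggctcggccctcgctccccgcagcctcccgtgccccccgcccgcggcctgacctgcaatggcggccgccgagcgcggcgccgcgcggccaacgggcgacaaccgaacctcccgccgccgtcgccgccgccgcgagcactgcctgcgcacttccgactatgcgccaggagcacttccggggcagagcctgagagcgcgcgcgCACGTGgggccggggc
UTP20: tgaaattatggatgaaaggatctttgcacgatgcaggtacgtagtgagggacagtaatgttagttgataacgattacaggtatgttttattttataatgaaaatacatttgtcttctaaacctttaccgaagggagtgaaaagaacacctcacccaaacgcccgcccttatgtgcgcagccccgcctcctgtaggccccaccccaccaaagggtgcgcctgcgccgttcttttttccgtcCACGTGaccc
NAT10: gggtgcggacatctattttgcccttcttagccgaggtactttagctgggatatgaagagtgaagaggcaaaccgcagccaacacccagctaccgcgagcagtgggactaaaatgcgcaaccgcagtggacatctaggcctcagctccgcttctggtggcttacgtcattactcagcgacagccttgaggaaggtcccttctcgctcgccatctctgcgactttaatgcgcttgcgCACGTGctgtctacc
WDR43: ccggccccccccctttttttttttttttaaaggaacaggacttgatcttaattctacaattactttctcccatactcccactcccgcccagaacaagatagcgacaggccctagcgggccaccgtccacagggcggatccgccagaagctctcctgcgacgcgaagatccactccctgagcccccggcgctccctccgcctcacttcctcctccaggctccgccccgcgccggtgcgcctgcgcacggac
NOB1: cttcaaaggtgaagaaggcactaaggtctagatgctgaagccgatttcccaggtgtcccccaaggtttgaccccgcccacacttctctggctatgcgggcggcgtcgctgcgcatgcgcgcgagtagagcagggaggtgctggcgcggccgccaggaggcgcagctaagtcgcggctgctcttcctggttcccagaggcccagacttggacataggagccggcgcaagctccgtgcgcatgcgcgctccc

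All values are the authors' normalized log2 signals (robust multi-array average, RMA), where a difference of 1 is a doubling. Signals of different probe sets are not comparable as amounts of RNA, so each gene is compared only with itself. Groups were compared in 1 limma model of the 17 group means over all genes, with p-values adjusted by Benjamini-Hochberg within each of 25 comparisons, and a gene was called at an adjusted p under 0.05. Differences are given ± their standard error. The median standard error of a difference of 3 against 3 arrays was 0.122, and the number of arrays limits the precision.

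Arrays of 1 group correlated at r of 0.9952 to 0.9972 over all genes. The epithelial markers KRT8, KRT18, KRT19, EPCAM and CDH1 lay between 9.07 and 14.44 in every array. Of the type II alveolar cell markers, SFTPA1, SFTPB, SFTPC and NKX2-1 lay between 3.69 and 5.26, near the low end of signals that run from 3.36 to 14.58. The immune markers PTPRC, CD3E and CD79A, the endothelial PECAM1, VWF and CDH5 and the fibroblast COL1A1, COL3A1 and DCN lay between 3.76 and 5.43, and CD68 between 6.82 and 7.94. As a sign of RNA quality, the 3′ minus 5′ signal of ACTB averaged 1.37 ± 0.09 (SD, n = 3) before the medium change and between 1.01 and 1.37 over all groups. That of GAPDH stayed between -0.19 and -0.12. In whole-culture RNA a smaller share of cells expressing a gene cannot be told apart from less RNA of it in each cell.

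Averaged over the 39 members, the log2 signal was highest before the medium change, at 10.098 ± 0.012 (SD, n = 3), with single arrays from 10.087 to 10.111. After 24 h in the new medium with DMSO it was 9.732 ± 0.021 (SD, n = 3) with serine and 9.790 ± 0.023 (SD, n = 3) without. It stood at 9.937 ± 0.024 (SD, n = 3) with serine at 6 h and at 9.851 ± 0.007 (SD, n = 3) without. At 24 h it was lowest, at 9.560 ± 0.017 (SD, n = 3) with serine and 9.607 ± 0.023 (SD, n = 3) without. The compound 16 groups lay within 0.03 of their DMSO groups except without serine at 24 h, where the compound group stood at 9.673 ± 0.006 (SD, n = 3), its arrays at 9.666 to 9.678 against 9.594 to 9.633 in DMSO. The mean of all genes ran from 6.897 to 6.962 over single arrays, and that of 67 cytosolic ribosomal protein genes, whose products the assembly factors put together, from 13.610 to 13.715.

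**Figure D1:**
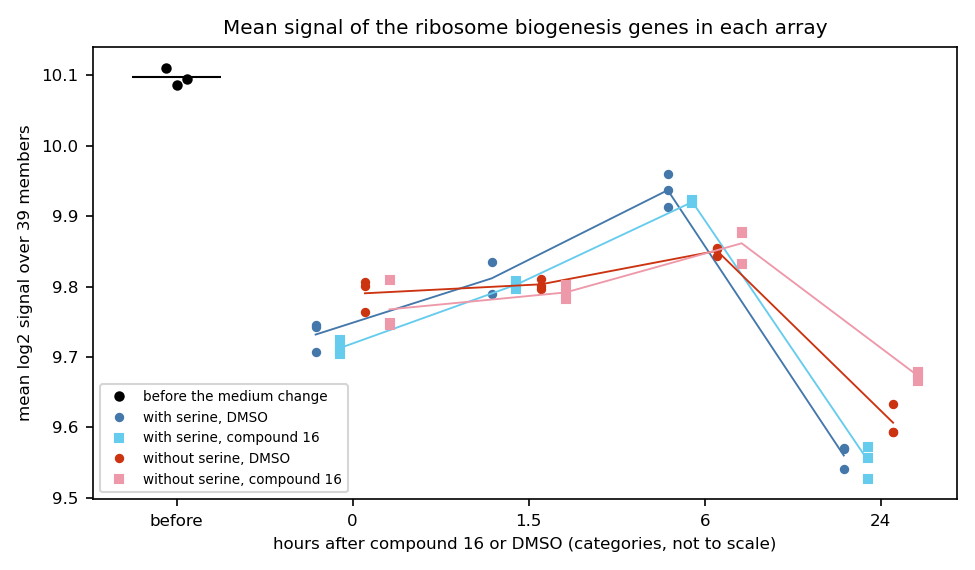
Mean log2 signal of the 39 measured ribosome biogenesis genes in each array (points), by time (horizontal axis, in categories), with lines joining the group means of each medium and treatment. The 3 arrays before the medium change lie above all others, at 10.087 to 10.111, and the 24 h arrays lie lowest.

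Relative to the mean before the medium change, group means of the members ran from -1.06 to 0.26. The lowest, at -1.06, were POLR1A, the largest subunit of RNA polymerase I, with serine and DMSO at 24 h, and LYAR, a nucleolar protein, with serine and compound at 24 h. The highest was UBTF, the upstream binding factor of the same polymerase, with serine and compound at 6 h.

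**Figure D2:**
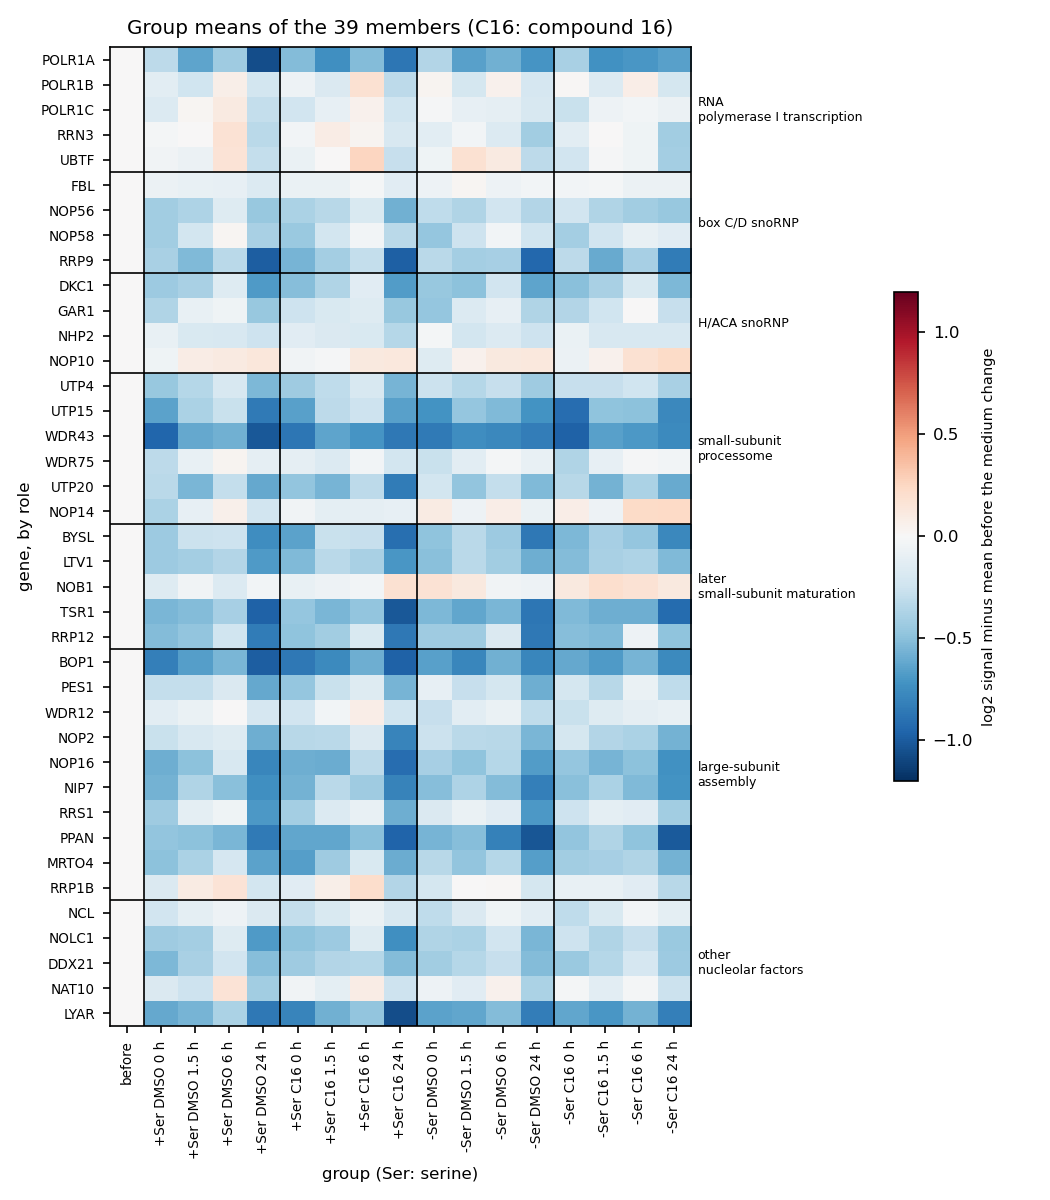
Group mean log2 signal of each member (rows, ordered by role) minus its own mean before the medium change, for each group (columns); the colour scale runs from -1.2 to 1.2. Most values in the new-medium groups are below 0, while the RNA polymerase I factors POLR1B, POLR1C, RRN3 and UBTF lie between -0.16 and 0.03 at 0 h with DMSO.

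The first comparison set cells after 24 h in the new medium, with DMSO, against cells before the change. With serine 27 of the 39 members fell and 0 rose, and without serine 27 fell and 1 rose. The median difference of the members was -0.39 with serine and -0.30 without, against 0.01 for all genes in both. Over all genes limma called 21.7% with serine (9.46% lower) and 28.6% without (12.6% lower). Arrays of the groups did not overlap for 31 members with serine, all lower, where 15.2% of all genes were lower and 18.3% higher without overlap. Without serine 25 members were lower and 1 higher without overlap, where 17.5% of all genes were lower and 20.7% higher. The comparisons share the 3 arrays taken before the change. The change replaced the whole medium, so the medium and the time in culture cannot be told apart. The arrays before it also hold title numbers of their own, 1 to 3, against 13 to 15 with serine and 19 to 21 without. Any processing by block of title numbers therefore cannot be told apart from the change either.

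**Figure D3:**
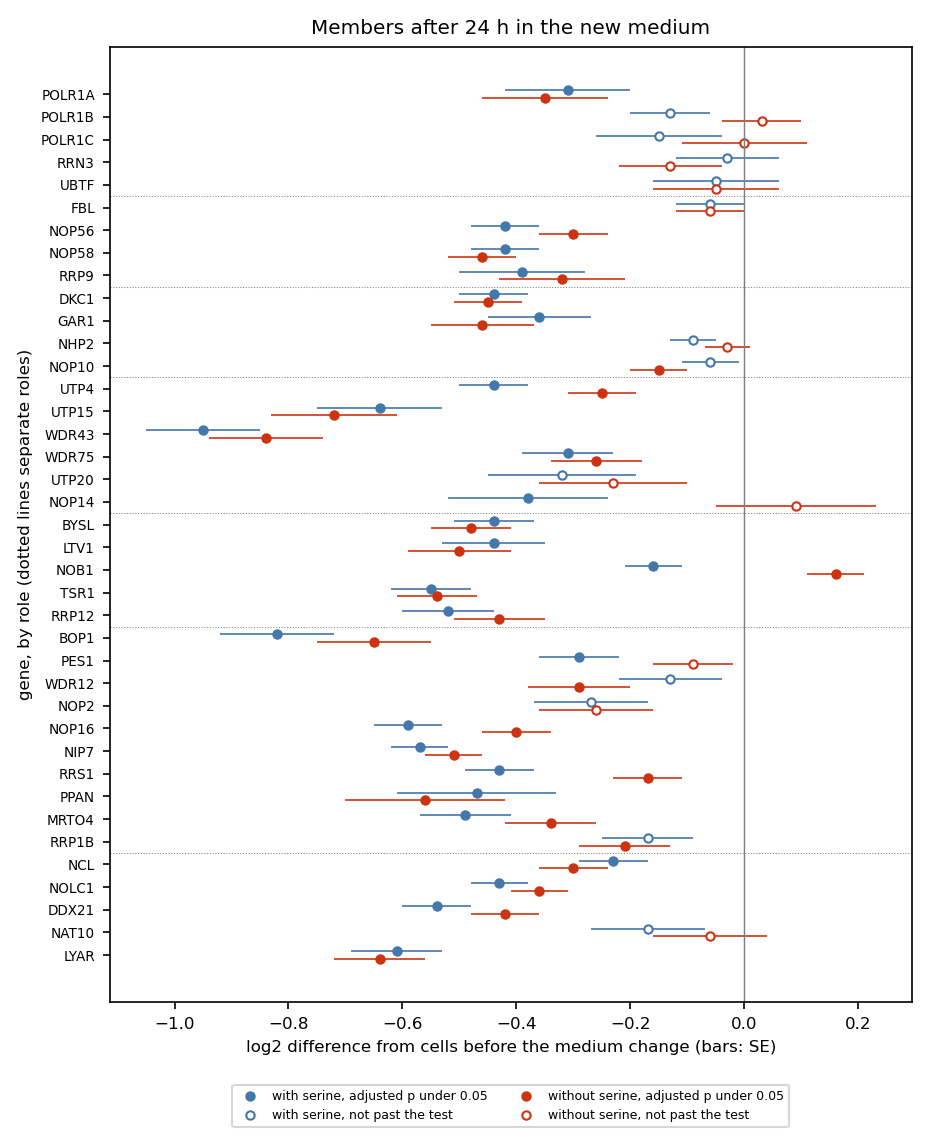
Log2 difference of each member between 0 h DMSO and the arrays before the medium change, in medium with and without serine; bars are standard errors from the limma model and filled points have an adjusted p under 0.05. WDR43 is lowest in both media, and NOB1 is the only member called on opposite sides.

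Of the RNA polymerase I factors 1 of 5 fell in each medium. This was POLR1A, by 0.31 ± 0.11 with serine and 0.35 ± 0.11 without. With serine the call was lost without array 1, 3, 13 or 14, and without serine it was lost without array 3 or 20 (a fall of 0.20 without array 20). POLR1B, its partner subunit, differed by -0.13 and 0.03, POLR1C, a subunit shared with RNA polymerase III, by -0.15 and 0, RRN3, which recruits the polymerase to the rRNA gene, by -0.03 and -0.13, and UBTF by -0.05 and -0.05, none of them called.

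Of the box C/D proteins 3 of 4 fell in both media. The scaffold NOP58 fell by 0.42 with serine and 0.46 without, its partner NOP56 by 0.42 and 0.30, and RRP9, specific to the U3 particle, by 0.39 and 0.32. The RRP9 fall with serine was 0.21 and not called without array 14, and its call was also lost without array 3. Without serine it was lost without array 1, 3, 20 or 21. The methyltransferase FBL differed by -0.06 in both and was not called. Of the H/ACA proteins the pseudouridine synthase DKC1 fell by 0.44 and 0.45 and GAR1 by 0.36 and 0.46. NOP10 fell by 0.15 without serine and differed by -0.06 with serine, which was not called. The NOP10 call was lost without array 1, 2 or 19. NHP2 was not called in either medium.

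Of the small-subunit processome 5 of 6 fell with serine and 4 without. WDR43, a subunit that also acts in rRNA transcription, read 9.01, 8.96 and 9.02 before the change, 8.03, 7.97 and 8.15 after it with serine, and 8.09, 8.18 and 8.18 without. All 6 later arrays lay below all 3 earlier ones, and the fall was 0.95 ± 0.10 with serine (limma adjusted p = 3.19e-09) and 0.84 ± 0.10 without (adjusted p = 2.58e-08). UTP15, of the same subcomplex, read 8.20, 8.32 and 8.12 before, 7.64, 7.66 and 7.43 with serine and 7.30, 7.68 and 7.50 without, again with no overlap. Its falls were 0.64 ± 0.11 and 0.72 ± 0.11, the first 0.42 when its probe sets were averaged. UTP4 fell by 0.44 with serine and 0.25 without, and WDR75 by 0.31 and 0.26, with its calls lost without array 2 in either medium or without array 21 in the serine-free one. UTP20 differed by -0.32 and -0.23 and was not called. NOP14 read 7.20, 6.78 and 7.10 before the change and 6.62, 6.60 and 6.70 with serine, a fall of 0.38 ± 0.14 (limma adjusted p = 0.0385) whose call was lost without array 1, 3, 13, 14 or 15, and which was 0.22 with its probe sets averaged. Without serine NOP14 read 7.30, 7.03 and 7.02, which overlaps the earlier arrays.

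Of the factors of later small-subunit maturation all 5 fell with serine and 4 without. TSR1 fell by 0.55 with serine and 0.54 without, BYSL (bystin) by 0.44 and 0.48, LTV1 by 0.44 and 0.50, and RRP12, needed for export of the subunits, by 0.52 and 0.43. NOB1, the nuclease that makes the final cut of the small-subunit rRNA, read 11.01, 10.99 and 10.95 before the change, 10.87, 10.87 and 10.74 with serine and 11.14, 11.14 and 11.16 without. The serine arrays lay below and the serine-free arrays above the earlier ones. It fell by 0.16 ± 0.05 with serine (limma adjusted p = 0.0291) and rose by 0.16 ± 0.05 without (adjusted p = 0.0169). Both calls are near the threshold. The first was lost without array 1, 2 or 15 and the second without array 3 or 21 (adjusted p = 0.069 and 0.0512). With quantile normalization the fall was 0.12 and not called, and with arrays centred on their medians the rise was 0.09 and not called.

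Of the 10 measured large-subunit factors 7 fell with serine and 8 without. BOP1, of the PeBoW complex that processes the large-subunit rRNA, read 9.71, 9.75 and 9.58 before, 9.05, 8.75 and 8.78 with serine and 9.03, 8.98 and 9.08 without. The arrays did not overlap, and the falls were 0.82 ± 0.10 and 0.65 ± 0.10. Of its partners, PES1 differed by -0.29 with serine (called) and -0.09 without, and WDR12 by -0.13 with serine and -0.29 without (called). The difference between the media was not called for either (0.20 and -0.16, limma adjusted p = 0.103 and 0.333). The WDR12 arrays overlapped those before the change, and its call was lost without array 1, 2 or 20. NIP7 fell by 0.57 ± 0.05 with serine (limma adjusted p = 9.16e-11) and 0.51 ± 0.05 without, from 10.87, 10.87 and 10.84 to 10.25, 10.26 and 10.35 and to 10.28, 10.38 and 10.39. NOP16 fell by 0.59 ± 0.06 with serine (adjusted p = 1.09e-10) and 0.40 ± 0.06 without. Falls in both media were also called for RRS1, a carrier of the small 5S particle (0.43 with serine and 0.17 without), PPAN (0.47 and 0.56) and MRTO4 (0.49 and 0.34). The RRS1 call without serine was lost without array 1, 3, 20 or 21 and the PPAN call with serine without array 1 or 14. RRP1B fell by 0.21 without serine, a call lost without array 1, 2, 19 or 21, and the methyltransferase NOP2 (-0.27 and -0.26) was not called.

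Of the other nucleolar factors LYAR fell by 0.61 with serine and 0.64 without, the RNA helicase DDX21 by 0.54 and 0.42, NOLC1, a chaperone of small nucleolar particles, by 0.43 and 0.36, and nucleolin (NCL) by 0.23 and 0.30. NAT10 differed by -0.17 and -0.06 and was not called.

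The counts were similar on every scale tried. Centring arrays on their medians gave 32 members lower with serine and 28 without, and quantile normalization 27 and 27. The members' median stood 0.40 and 0.31 below that of all genes on the authors' scale and after quantile normalization; centring leaves that gap as it is by construction. Leaving out any 1 array left 23 to 25 called members with serine and 23 to 26 without. The ACTB 3′ minus 5′ signal also moved with the change, from 1.37 ± 0.09 (SD, n = 3) to 1.22 ± 0.15 with serine and 1.14 ± 0.09 without (SD, n = 3 each), and its part in the result was not tested.

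Other genes of the pathway are given for comparison, from lists that do not overlap the members. Of 121 further ribosome biogenesis genes 59 fell and 1 rose with serine (median -0.20), and 52 fell and 5 rose without (median -0.18). The helicase DDX10 fell by 0.77 with serine and 0.76 without and GTPBP4, a large-subunit GTPase, by 0.67 with serine, while the small-subunit kinase RIOK2 rose by 0.54 ± 0.12 without serine, or by 0.17 with its probe sets averaged. Of the 67 cytosolic ribosomal proteins 3 fell and 0 rose with serine and 3 fell and 11 rose without, with medians of 0 and 0.04. Of all genes 12.3% were called higher and 9.46% lower with serine, and 16% higher and 12.6% lower without. Among the ribosomal proteins RPL27A fell by 1.05 with serine and 1.18 ± 0.17 without. RPL38 rose by 0.21 without serine, a call lost when arrays were centred on their medians.

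Of 13 upstream regulators, MYC stood out. It read 12.77, 12.79 and 12.86 before the change, 11.39, 11.37 and 11.31 with serine and 11.56, 11.54 and 11.52 without. The later arrays were all below the earlier ones. The falls were 1.45 ± 0.07 with serine (limma adjusted p = 5.22e-18; 0.366 times the earlier signal) and 1.27 ± 0.07 without (adjusted p = 2.24e-16; 0.416 times). MXD4, a partner of MAX that opposes MYC, rose by 1.01 ± 0.19 without serine and by 0.58 with serine, or by 0.62 and 0.37 with its probe sets averaged. The call with serine was lost without array 1, 14 or 15 and with median centring. Whether the members followed MYC was not tested.

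The next comparison set medium without serine against medium with serine at the same time, in DMSO. At 0 h, after 24 h in each medium, 4 members were higher without serine and 0 lower, against 5.9% of all genes called (2.99% higher and 2.91% lower), with a median difference of 0.06. NOB1 differed by 0.32 ± 0.05 (limma adjusted p = 0.000162), with its arrays in the 2 media (10.87, 10.87 and 10.74 with serine, 11.14, 11.14 and 11.16 without) well apart. NOP14 read 6.62, 6.60 and 6.70 with serine and 7.30, 7.03 and 7.02 without, a rise of 0.48 ± 0.14 (adjusted p = 0.0302), or 0.30 with its probe sets averaged. RRS1 read 10.63, 10.44 and 10.52 against 10.81, 10.77 and 10.78, a rise of 0.26 ± 0.06 (adjusted p = 0.00737).

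None of these arrays overlapped between the media. Without overlap 11 members were higher and 4 lower in the serine-free medium, where 12.2% of all genes were higher and 10.7% lower. NOP16 was higher by 0.19 ± 0.06 (limma adjusted p = 0.0369). Only NOB1 kept its call whichever array was left out. The count fell to 1 without array 14 and to 2 without array 13, both with serine. The NOP14 call was also lost without array 15 or 19 and the NOP16 call without array 15, 20 or 21.

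At 1.5 h limma called 0 members between the media in DMSO (1 at an unadjusted p under 0.05), against 1.97% of all genes (1.05% higher and 0.927% lower). At 6 h RRN3 was the member called, against 3.18% of all genes (1.75% higher and 1.43% lower), with 6 members at an unadjusted p under 0.05 and a median of -0.08. It read 8.70, 8.51 and 8.56 with serine and 8.18, 8.28 and 8.31 without, a fall of 0.33 ± 0.09 (adjusted p = 0.0216), without overlap. The call was lost without array 60, 62, 66 or 67, and another probe set of RRN3 correlated with this one at only -0.18 over the 50 arrays. The mean of the RRN3 probe sets differed by -0.16, not called. Over the members 0 were higher and 8 lower without overlap at 6 h, where 9.47% of all genes were higher and 8.66% lower. At 24 h limma called 0 members (5 at an unadjusted p under 0.05), against 0.159% of all genes (0.0877% higher and 0.0713% lower). Arrays at 24 h did not overlap for 9 members that were higher and 3 that were lower, where 6.5% of all genes were higher and 6.16% lower.

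The same comparison was made among compound 16 arrays. At 6 h 1 member was higher and 3 were lower without serine, against 11.8% of all genes (6.22% higher and 5.54% lower), a share no larger than that of all genes, with a median of -0.06. RRP1B, which acts in large-subunit processing, read 10.78, 10.98 and 10.79 with serine and 10.56, 10.51 and 10.43 without, a fall of 0.35 ± 0.08 (limma adjusted p = 0.00099). NOP56 read 12.50, 12.62 and 12.51 against 12.32, 12.33 and 12.25, a fall of 0.24 ± 0.06 (adjusted p = 0.00618). NOP16 read 10.98, 10.80 and 10.86 against 10.69, 10.76 and 10.66, a fall of 0.18 ± 0.06 (adjusted p = 0.0297). In each the serine-free arrays were all below the serine arrays. Over the members 4 were higher and 9 lower without overlap, where 13.1% of all genes were higher and 13.4% lower. NOB1 was higher by 0.20 ± 0.05 (adjusted p = 0.00961), reading 10.92, 11.05 and 10.88 with serine and 11.14, 11.15 and 11.15 without. The NOB1 call was lost without array 59, the NOP56 call without array 58 and the NOP16 call without array 57, 63 or 65. With the probe sets of a gene averaged, RRP1B differed by -0.09 and NOP16 by -0.13, neither called. Each of these averages takes in a probe set with a mean under the array medians (4.85 and 4.32). The probe set used for each gene correlated over the arrays with its others at 0.07 (RRP1B) and 0.12 (NOP16) at the lowest. Why the differences were smaller under averaging was not tested.

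At 24 h with compound 16, 4 members were higher without serine and 0 lower, against 4.39% of all genes (1.85% higher), with a median of 0.14 against 0 for all genes. Arrays did not overlap for 17 members that were higher and 2 that were lower, where 10.2% of all genes were higher and 10.2% lower without overlap. RRP12 read 8.54, 8.28 and 8.40 with serine and 8.61, 8.94 and 8.79 without, a rise of 0.38 ± 0.08 (limma adjusted p = 0.00214). NOLC1 read 11.30, 11.25 and 11.27 against 11.53, 11.64 and 11.51, a rise of 0.29 ± 0.05 (adjusted p = 0.000364). PES1, the PeBoW protein also named pescadillo, read 8.74, 8.57 and 8.63 against 8.85, 8.92 and 8.95, a rise of 0.26 ± 0.07 (adjusted p = 0.0268). All the serine-free arrays of these genes lay above the serine arrays. NHP2 was higher by 0.15 ± 0.04 (adjusted p = 0.04). The count was 2 without array 94, 100 or 101. The PES1 call was also lost without array 95 and the NHP2 call without array 93 or 95. The mean of the NOLC1 probe sets differed by 0.12, which was not called, and the PES1 call was lost with quantile normalization (adjusted p = 0.0535).

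Of the 121 further genes of the pathway, 7 were higher and 13 lower without serine in the compound arrays at 6 h, and 9 were higher and 1 lower at 24 h. RSL24D1, a large-subunit factor, was higher by 0.62 ± 0.06 at 6 h, and by 0.28 in DMSO, a call lost without array 62. In DMSO at 6 h 3 of the 121 were higher and 0 lower. MYC was higher without serine at 6 h by 0.33 ± 0.07 in DMSO (limma adjusted p = 0.00735; lost without array 62 or 66) and by 0.54 ± 0.07 with compound (adjusted p = 1.39e-06). At 24 h with compound it was higher by 0.29 (adjusted p = 0.0136; lost without array 94 or 100). Of the ribosomal proteins 2 were higher and 1 lower with compound at 6 h and 2 were higher at 24 h.

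Compound 16 was then compared with DMSO in the same medium at the same time. With serine limma called 0 members at 0 h, 1.5 h and 6 h, where it called 0% of all genes, with 6, 0 and 2 members at an unadjusted p under 0.05. Without serine it called 0 members at 0 h (1 unadjusted; 0% of all genes) and 0 at 1.5 h (0 unadjusted), where 0.0822% of all genes were called, 0.0768% higher and 0.00548% lower.

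At 6 h without serine NOB1 was the member called, against 2.72% of all genes (1.49% higher). It read 10.97, 10.89 and 10.97 in DMSO and 11.14, 11.15 and 11.15 with compound 16, without overlap, a rise of 0.20 ± 0.05 (limma adjusted p = 0.0241) that lost its call without array 63, 64, 65 or 67. Over the members 4 were higher and 3 lower without overlap, where 9.32% of all genes were higher and 9.82% lower. With serine at 6 h NOB1 differed by 0.13 ± 0.05 (adjusted p = 0.8).

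At 24 h without serine 4 members rose with compound 16 and 0 fell, against 7.06% of all genes (2.97% higher and 4.08% lower). The median of the members was 0.07 and that of all genes 0. RRP12 read 8.33, 8.38 and 8.48 in DMSO and 8.61, 8.94 and 8.79 with compound, a rise of 0.38 ± 0.08 (limma adjusted p = 0.00107). PES1 read 8.73, 8.62 and 8.50 against 8.85, 8.92 and 8.95, a rise of 0.29 ± 0.07 (adjusted p = 0.00705). RRS1 read 10.20, 10.31 and 10.31 against 10.61, 10.47 and 10.53, a rise of 0.26 ± 0.06 (adjusted p = 0.00333). In these 3 genes every compound array lay above every DMSO array. NOB1 rose by 0.18 ± 0.05 (adjusted p = 0.0285), from 11.00, 10.84 and 10.93 to 11.04, 11.17 and 11.10, also without overlap. Arrays did not overlap for 6 members that were higher and 2 that were lower, where 11.2% of all genes were higher and 11.6% lower. RRP12, PES1 and RRS1 were among the 20 members that fell from 0 to 24 h in DMSO without serine. That comparison uses the same 24 h DMSO arrays, so the fall and the rise are not independent.

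Leaving out the DMSO array with the highest title number left 2 called members, with the calls of PES1 and NOB1 lost. The NOB1 call was also lost without array 100 or 101 or the DMSO array with the middle title number, and with quantile normalization (adjusted p = 0.0547). This comparison and that between the media at 24 h with compound use the same 3 serine-free compound arrays.

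With serine at 24 h NOB1 was the member called, against 1.37% of all genes (0.746% higher), with a member median of -0.01. It read 10.99, 10.95 and 10.91 in DMSO and 11.18, 11.21 and 11.09 with compound, without overlap, a rise of 0.21 ± 0.05 (limma adjusted p = 0.0308) whose call was lost without array 93, 94, 97 or 98, or with arrays centred on their medians (adjusted p = 0.0998). Over the members 5 were higher and 4 lower without overlap, where 7.97% of all genes were higher and 7.84% lower. RRP12 differed by -0.02 ± 0.08 there.

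**Figure D4:**
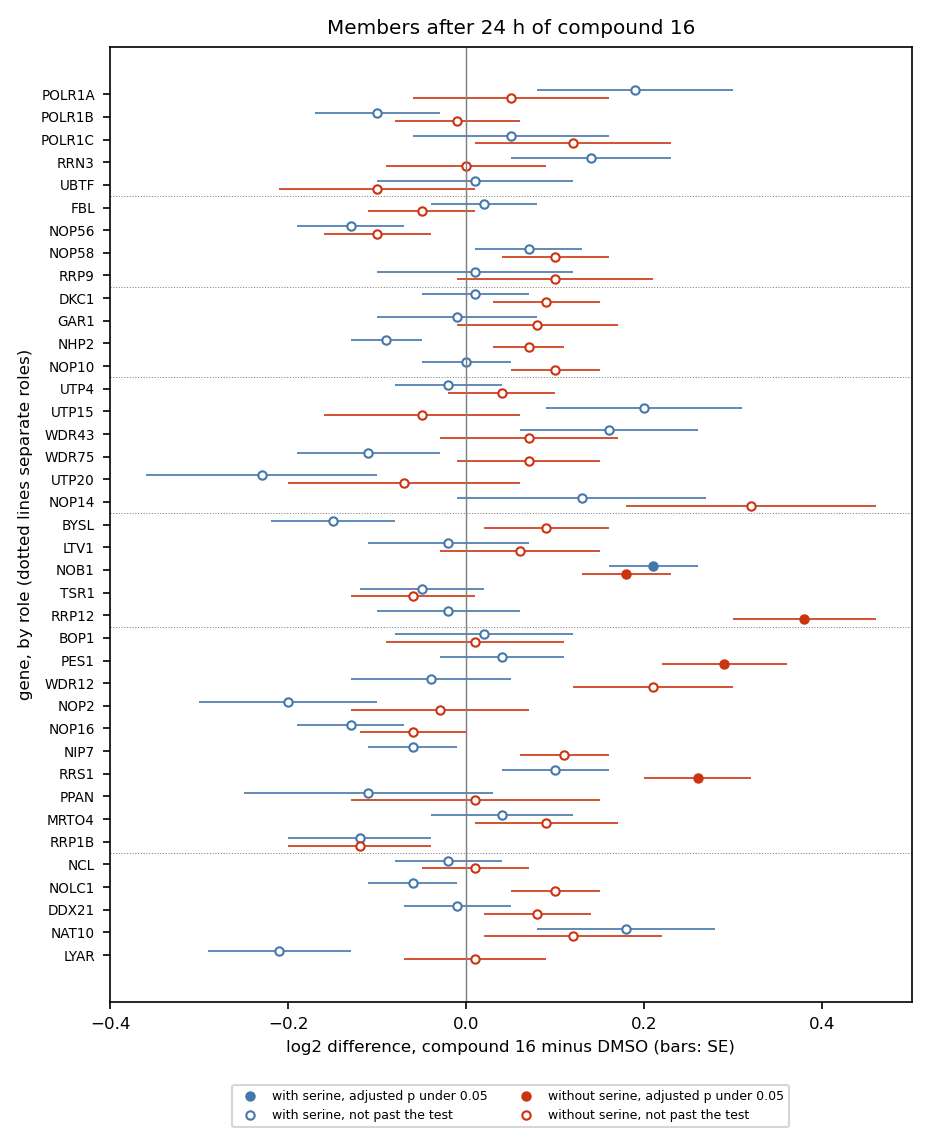
Log2 difference of each member between compound 16 and DMSO at 24 h, in medium with and without serine; bars are standard errors from the limma model. RRP12 is at 0.38 without serine and at -0.02 with serine, and NOB1 is above 0 in both media.

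The difference between the compound's effect without and with serine was tested directly. Limma called 0 members at 1.5 h, 6 h and 24 h, against 0.0164%, 0.888% and 1.28% of all genes (0.899% lower at 24 h), with 0, 2 and 7 members at an unadjusted p under 0.05. The member nearest the threshold at 24 h was RRP12, at 0.40 ± 0.11 (adjusted p = 0.0799). Without array 93 or without array 99 there was 1 called member.

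Of the 121 further genes of the pathway, 14 rose and 1 fell with compound at 24 h without serine (median 0.05), and 2 rose and 0 fell with serine. RSL24D1 rose by 0.46 ± 0.06 without serine and by 0.30 with serine, the latter a call lost without array 95 or 98. NOL9, a kinase of precursor rRNA, fell by 0.57 without serine, and its effect differed between the media by -0.93. At 6 h without serine 3 rose and 2 fell, among them DDX10, which rose by 0.46 ± 0.10 (call lost without array 63 or 68). Of the ribosomal proteins 0 rose and 1 fell at 24 h without serine. MYC read 11.59, 11.63 and 11.56 in DMSO and 11.83, 11.88 and 11.84 with compound at 24 h without serine, without overlap. This was a rise of 0.26 ± 0.07 (limma adjusted p = 0.0267), whose call was kept in 1 of the 6 fits that left out an array. MXD3, another MAX partner that opposes MYC, fell there by 0.87 ± 0.10, and its effect differed between the media by -0.88 ± 0.14 (adjusted p = 0.000122). With its probe sets averaged these were -0.35 and -0.40, both still called.

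The last comparisons were made over time from 0 h, to 6 h in DMSO and to 24 h in each medium and treatment. Changes from 0 to 1.5 h, and from 0 to 6 h with compound, were not tested. Those in DMSO share the 0 h DMSO arrays with the comparisons of the medium change. Each time holds a block of title numbers of its own, so time and any processing by block cannot be told apart. In DMSO with serine 20 of the 39 members rose from 0 to 6 h and 0 fell, against 14.3% of all genes (4.67% higher and 9.62% lower). The members' median was 0.23 and that of all genes -0.02. By role, 5 of 6 processome proteins rose, 4 of 5 other nucleolar factors, 3 of 4 H/ACA proteins, 2 of 4 box C/D proteins, 4 of 10 large-subunit factors, and 1 of 5 each of the RNA polymerase I and later small-subunit factors.

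NOP58 read 11.58, 11.67 and 11.62 at 0 h and 12.01, 12.12 and 12.06 at 6 h with serine, a rise of 0.44 ± 0.06 (limma adjusted p = 7.66e-07). NOP14 went from 6.62, 6.60 and 6.70 to 7.04, 7.09 and 7.12, a rise of 0.44 ± 0.14 (adjusted p = 0.0237) whose call was lost without array 13, 14, 61 or 62. NOP16 went from 10.60, 10.61 and 10.59 to 11.05, 10.95 and 10.99, a rise of 0.40 ± 0.06 (adjusted p = 3.04e-06). In all 3 genes the arrays of the 2 times did not overlap. Over the members 26 were higher and 1 lower without overlap, where 11.7% of all genes were higher and 17.8% lower. RRS1 rose by 0.38 and WDR43 by 0.37, from the low values of 0 h to 8.29, 8.52 and 8.44 in WDR43. These stayed under the 8.96 to 9.02 of WDR43 before the medium change. The WDR43 call was lost without array 14 or 61, and without array 61 the count of called members was 13.

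Without serine 8 members rose from 0 to 6 h in DMSO and 2 fell, against 22.4% of all genes (8.15% higher and 14.3% lower), with a member median of 0.07. NOP58 went from 11.51, 11.64 and 11.59 to 12.01, 12.06 and 11.96, a rise of 0.43 ± 0.06. GAR1 went from 9.43, 9.77 and 9.58 to 10.00, 9.82 and 10.03, a rise of 0.36 ± 0.09, and NOP10 from 11.97, 12.15 and 12.12 to 12.30, 12.32 and 12.43, a rise of 0.27 ± 0.05. All 6 h arrays of these 3 genes lay above the 0 h arrays. Over the members 13 were higher and 3 lower without overlap, where 14.2% of all genes were higher and 21% lower. The mean of the GAR1 probe sets differed by 0.06, which was not called.

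In the same comparison NHP2 fell by 0.14 ± 0.04, from 12.57, 12.58 and 12.58 to 12.41, 12.42 and 12.49, so that 3 of the 4 H/ACA proteins rose and 1 fell. NOB1 fell by 0.20 ± 0.05, from 11.14, 11.14 and 11.16 to 10.97, 10.89 and 10.97. The NHP2 call was lost without array 19, 20, 21, 66 or 67, and both falls lost their call with arrays centred on their medians (-0.01 and -0.08). Leaving 1 array out, 6 members were called without array 21 or 66. On other scales the rises and falls without serine were 15 and 0 (arrays centred on their medians), 9 and 2 (quantile normalization) and 11 and 0 (centred on the median of brighter genes), and with serine 31 and 0, 23 and 0, and 26 and 0. Of all genes these scales called 18.9%, 9.66% and 13.1% higher and 5.92%, 10.3% and 8.51% lower without serine. With serine they called 19.1%, 6% and 8.13% higher and 3.33%, 6.65% and 6.26% lower. Median centring moved the median of all genes from -0.02 to 0.11 without serine and to 0.13 with serine. Each member's own difference moves by that same shift. The members' median stood above that of all genes by 0.25 with serine and 0.08 without, and by 0.27 and 0.09 after quantile normalization; centring leaves this gap as it is by construction. Of the 121 further genes 25 rose and 6 fell with serine and 23 rose and 21 fell without, on the authors' scale. MYC differed by 0.03 with serine and 0.18 without (limma adjusted p = 0.0873).

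**Figure D5:**
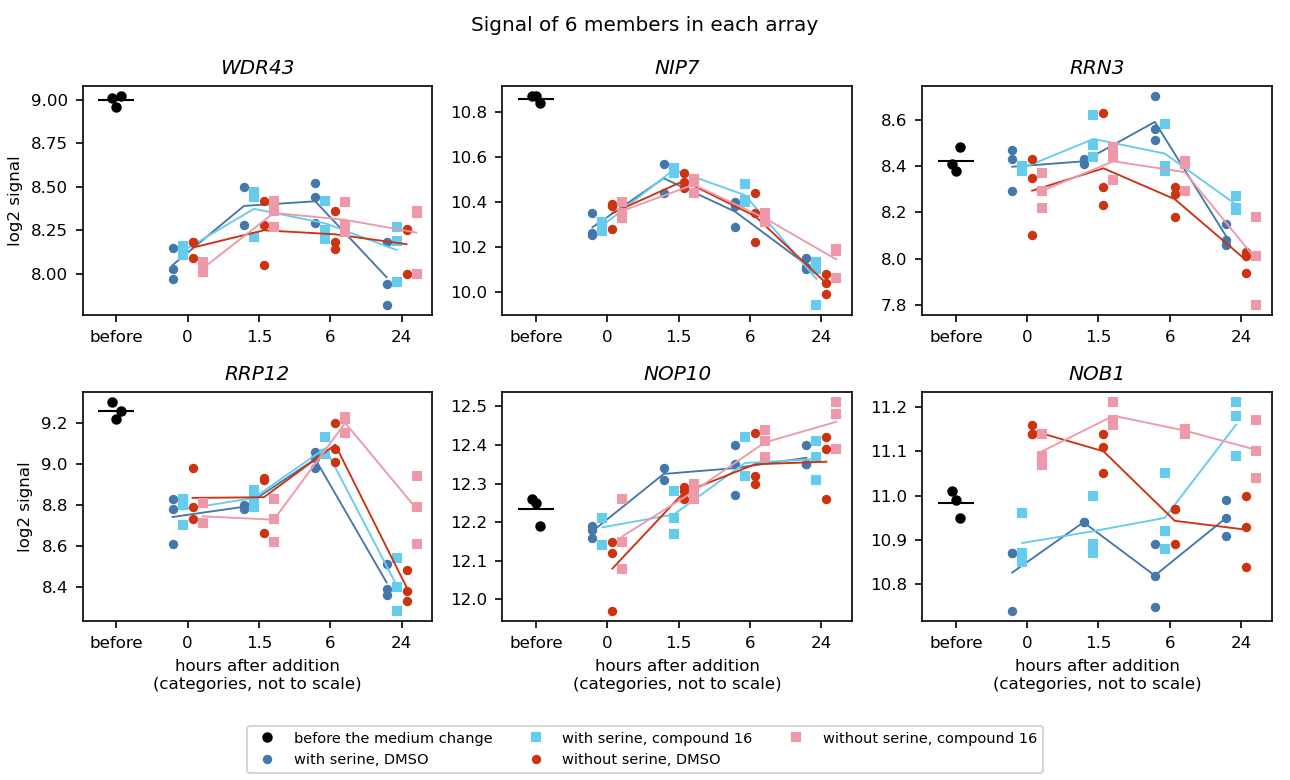
Log2 signal of WDR43, NIP7, RRN3, RRP12, NOP10 and NOB1 in each array (points) by time category, with lines joining the group means of each medium and treatment; each panel has its own vertical scale. WDR43 and NIP7 fall after the medium change, NOP10 is higher at 6 and 24 h than at 0 h, and NOB1 lies above its DMSO groups with compound 16 at 24 h.

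By 24 h most called members were below their 0 h signal on the authors' scale. In DMSO with serine 15 members fell and 1 rose, against 20.6% of all genes (14.8% lower), and without serine 20 fell and 2 rose, against 25.5% (17.5% lower). With compound 16, 16 fell and 2 rose with serine, against 21.4% (14.8% lower), and 13 fell and 4 rose without, against 27.2% (19.6% lower). Without overlap between the times 22 and 21 members were lower in DMSO with and without serine, and 17 and 17 with compound. Of all genes 22.8%, 23.9%, 21.3% and 24.7% were lower in that order. Members higher without overlap were 2, 4, 3 and 5, against 11.8%, 12.7%, 12.5% and 12% of all genes. The member medians were -0.17 and -0.19 in DMSO and -0.18 and -0.15 with compound, in medium with and without serine.

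This direction depended on the scale. With arrays centred on their medians the rises and falls were 8 and 3 (DMSO, serine), 6 and 5 (DMSO, no serine), 5 and 3 (compound, serine) and 17 and 0 (compound, no serine). With quantile normalization they were 3 and 8, 3 and 13, 2 and 8, and 9 and 6, in the same order, and with arrays centred on the brighter genes 3 and 4, 5 and 7, 4 and 6, and 7 and 3. Over all genes median centring called 31.7%, 26.5%, 23.1% and 39.1% higher and 4.06%, 5.49%, 5.46% and 5.36% lower. Quantile normalization called 7.14%, 9.6%, 8.44% and 10.2% higher and 7.79%, 10.6%, 9.21% and 11.3% lower. Centring on brighter genes called 15.2%, 17.8%, 16% and 19.6% higher and 6.85%, 7.86%, 7.56% and 9.89% lower. Median centring moved the median of all genes by 0.17 to 0.25 at 24 h. Each member's own difference moves by that same shift, rises becoming larger and falls smaller. In the same order, the members' median was below that of all genes by 0.14, 0.16, 0.15 and 0.11 on the authors' scale, which centring leaves as it is by construction, and by 0.09, 0.13, 0.09 and 0.04 after quantile normalization.

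RRP9 fell in all 4 arms. In DMSO it went from 7.45, 7.0 and 7.61 to 6.74, 6.76 and 6.75 with serine, a fall of 0.60, and from 7.51, 7.33 and 7.42 to 6.90, 6.57 and 6.93 without, a fall of 0.62 ± 0.11. All 24 h arrays were below the 0 h arrays in both media. With compound it fell by 0.42 with serine (call lost without array 94) and by 0.52 without. Both of these calls were lost with median centring (-0.26 and -0.27).

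POLR1A in DMSO with serine went from 7.86, 7.93 and 8.09 to 7.13, 7.26 and 7.24, a fall of 0.75 ± 0.11. TSR1 fell from 10.01, 10.03 and 9.99 to 9.61, 9.58 and 9.59 in the same arm, by 0.42, and with compound 16 by 0.56 with serine and by 0.40 without, the last a call lost with median centring (-0.14). With its probe sets averaged the TSR1 falls were 0.23, 0.36 and 0.17. In each of these the arrays of the 2 times were apart. In DMSO without serine RRS1, the 5S carrier, went from 10.81, 10.77 and 10.78 to 10.20, 10.31 and 10.31, a fall of 0.51 ± 0.06 (limma adjusted p = 8.64e-08). PES1 went from 9.01, 9.13 and 9.20 to 8.73, 8.62 and 8.50, a fall of 0.50 ± 0.07. With compound, PPAN without serine went from 7.85, 8.02 and 7.84 to 7.31, 7.26 and 7.54, a fall of 0.54 (-0.29 and not called with median centring), and NOP2 with serine from 8.74, 8.92 and 8.66 to 8.39, 8.32 and 8.23, a fall of 0.46. None of these overlapped between the times either.

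A few members went the other way. NOP10 rose in all 4 arms, by 0.19 in DMSO and 0.18 with compound in medium with serine, and by 0.28 and 0.30 without. In DMSO with serine it went from 12.16, 12.19 and 12.18 to 12.35, 12.35 and 12.40, and its rise with compound and serine lost its call without array 11 or 95. NOP58 rose without serine, from 11.51, 11.64 and 11.59 to 11.88, 11.75 and 11.78 in DMSO, by 0.22, and by 0.27 with compound. WDR75, a processome subunit, rose by 0.33 with compound without serine, from 9.34, 9.40 and 9.39 to 9.79, 9.65 and 9.68. NOB1 rose by 0.27 ± 0.05 with compound and serine, from 10.87, 10.85 and 10.96 to 11.18, 11.21 and 11.09. The arrays of the 2 times were apart in each of these genes. NCL rose by 0.18 with compound without serine, a call lost without array 18, 99 or 101. Of the 121 further genes of the pathway 43 fell and 7 rose in DMSO with serine, and 51 fell and 8 rose without. With compound 42 fell and 9 rose with serine, and 32 fell and 12 rose without. In the same order 14.8%, 17.5%, 14.8% and 19.6% of all genes were called lower and 5.85%, 7.97%, 6.59% and 7.65% higher. These counts are on the authors' scale, and the 121 genes were not counted on the other scales.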

How the data were processed

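Per the labels' protocols, RNA was extracted with Trizol and hybridised to 50 Affymetrix HG-U219 arrays. The deposited values are log2 signals, and the submitters' processing notes name RMA and limma, with no versions given in the sources used here. Of 49386 probe sets 45253 had 1 gene symbol, 1327 several, 2713 none and 93 were controls. Probe sets with several symbols were left out. For 11822 genes with several probe sets the brightest by mean was used. Deposited values were fitted as 17 group means in limma 3.58.1 (R 4.3.3; 33 residual and 3.7 prior degrees of freedom) over 18239 genes, checked on simulated data. The members, the lists of other genes and the comparisons were chosen with earlier results of these data known. Per-array values are given for the 3 largest called rises and falls of a comparison and for other members a result turns on. Motifs and coordinates come from RefSeq GRCh38.p14. Alternatives were median centring, mean of probe sets, a dim-gene filter, separate fits and each array left out. Quantile normalization and centring on brighter genes were added after the data were seen.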

Additional observations from a re-analysis of the deposited data

How the results depend on the processing

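Of the 177 called member differences, 105 kept their call whichever single array was left out and 72 lost it under at least 1. The filter on dim genes (below the 40th percentile of mean signal) kept all 177. It could remove no member, since every measured member lay above that percentile, the lowest being NOP14 at 53.9. It changed only the other genes of the fit and of the adjustment, so it says little about the calls. The mean of a gene's probe sets kept 138, with 33 no longer called and 6 reversed. Median centring kept 120, with 45 no longer called and 12 reversed. Quantile normalization kept 143 and centring on the median of brighter genes 128, the rest no longer called. Separate fits of only the arrays compared kept 68. The count of members in the interaction at 24 h became 1 with median centring and 1 without dim genes.

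With median centring the counts were 0 (compound with serine, 24 h), 7 and 8 (no serine against serine with compound, 6 and 24 h), 31 (6 h against 0 h, DMSO with serine), 11 (24 h against 0 h, DMSO without serine) and 8 (the same with compound and serine). For no serine against serine with compound it called 4.78% of all genes higher and 7.36% lower at 6 h. At 24 h it called 2.79% higher and 2% lower. The shares of all genes in the time comparisons are given with their results. The mean of probe sets gave 9 for no serine against serine with compound at 24 h. Without dim genes the counts were 2 (compound without serine, 6 h) and 7 and 7 (no serine against serine with compound, 6 and 24 h). Over the time comparisons at 24 h, quantile normalization gave 10 for compound with serine, and centring on brighter genes gave 12 and 7 in DMSO without and with serine and 10 and 10 with compound.

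Separate fits of only the arrays compared gave 0 called members for compound without serine at 6 and 24 h and with serine at 24 h, and 0 for no serine against serine in DMSO at 0 and 6 h and with compound at 6 and 24 h. Against 0 h they gave 1 and 3 at 6 h without and with serine, and at 24 h 7 and 5 in DMSO and 5 and 5 with compound. These fits have fewer residual degrees of freedom.

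Reversed with median centring were DKC1 (0) and UTP4 (0.01) in DMSO without serine at 24 h against 0 h, POLR1B (0.03), NOP56 (0.03), BYSL (0.02), NIP7 (0.04), RRS1 (0.08), RRP1B (0.01) and NOLC1 (0.05) with compound without serine, and NHP2 (0.06), NOP16 (0.03) and NIP7 (0.05) in DMSO with serine. Reversed with the mean of probe sets at 24 h were RRN3 (0.08) and DKC1 (0.08) in DMSO without serine, RRN3 (0.14) with compound without serine, RRN3 (0.12) and DKC1 (0.07) in DMSO with serine and RRP1B (0.09) with compound and serine; MXD4, no member, went to -0.32 with compound without serine. Averaging in a flat probe set shrinks a difference but cannot reverse its sign. The other probe sets of the members reversed by averaging had means of 6.51 and 6.18 (RRN3), 9.92 (DKC1) and 4.85 (RRP1B). Probe sets of RRN3, DKC1 and RRP1B correlated at -0.18, 0.37 and 0.07 at the lowest over the arrays, and those of NOP14 at -0.06. The lowest values for BYSL, LTV1 and WDR12, whose dimmest probe sets had means of 3.98, 4.63 and 4.25, were -0.18, 0.02 and 0.1. The cause of the reversals under averaging was not tested.

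Leaving out each array in turn gave 0 to 1 and 2 to 4 called members for compound without serine at 6 and 24 h, 0 to 1 with serine at 24 h and 0 to 1 for the interaction at 24 h. For no serine against serine it gave 1 to 3 at 0 h and 0 to 1 at 6 h in DMSO, and 3 to 4 and 2 to 5 with compound at 6 and 24 h. It gave 23 to 26 and 23 to 25 for the medium change without and with serine. Against 0 h it gave 6 to 8 and 13 to 18 at 6 h without and with serine, and at 24 h 17 to 21 and 12 to 16 in DMSO and 13 to 17 and 13 to 16 with compound.

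No paired analysis was possible because the title numbers run through the series and no groups share them. The precision of every value is limited by groups of 2 or 3 arrays.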
